A study of Homo sapiens with 79 samples.

Results

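Retinal organoids of day 90 and of day 200 of differentiation were compared across all genes, as 661 cells of day 90 against 737 cells of day 200, taken from the 1976 cells of the series by the day in each sample's title. The organoids were grown from a human embryonic stem cell line, H9, that carries a GFP reporter in the CRX gene, and every group received the same medium with foetal calf serum, the thyroid hormone T3, taurine and retinoic acid. Day 90 was captured on 1 Fluidigm C1 chip, a microfluidic array that lyses and amplifies cells apart, and day 200 on 2 chips, called chip a or day 200a (356 cells) and chip b or day 200b (381 cells) here. Each sample is 1 of 20 columns of a chip, and since the columns of a chip hold cells of the same load, columns and cells do not stand for separate cultures and were not used as replicates. Day and chip cannot be told apart at day 90, and the difference between chip a and chip b is the only measure of replicate error.

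The deposited values are counts of reads per gene without molecular identifiers. They were summed per chip and expressed as CPM, the reads of a gene in every 1000000 reads of the chip, which in these full-length libraries also scale with gene length, so levels are compared between days and not between genes. A gene was called higher or lower at day 200 where log2(CPM + 5) differed from day 90 by at least 1 in the same direction on chip a and on chip b, among the 11368 genes with at least 10 CPM on any of the 3 chips. This is a rule of size and not a test. The pseudocount of 5 CPM understates the change of low genes. The chips held 115657613 reads at day 90, 96603127 at day 200a and 89163300 at day 200b, and the median cell had 160339, 251828 and 212029 reads. Chip a stood apart in the number of genes, since with each cell thinned to 50000 reads its median cell had 1666.5 genes, against 2873 at day 90 and 2769 on chip b. The study also added spike-in RNA at a higher concentration on the day 90 chip. The part of these differences in the results was not tested.

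By this rule 147 genes were higher at day 200, which is 1.29% of those tested, and 133 were lower, which is 1.17%, or 2.46% in either direction. Between the day 200 chips themselves 883 genes differed by 2-fold or more. The median absolute log2 difference was 0.33 between chip a and chip b, 0.36 between chip a and day 90 and 0.31 between chip b and day 90. In opposite directions on chip a and chip b 10 genes passed 2-fold. Both differences subtract the same day 90 chip, so an error of that chip moves both the same way. This count is therefore no measure of agreement between the day 200 chips. edgeR's quasi-likelihood test over the 3 chips, with 1 residual degree of freedom and Benjamini-Hochberg adjustment, called 6 genes higher (0.0528%) and 24 lower (0.211%), and all 30 also passed the rule of size. An unadjusted p under 0.05 was reached by 717 genes. These calls depended on settings, since total reads in place of TMM library sizes left 2 higher and 3 lower, and testing without the filter left 0, with 540 genes at an unadjusted p under 0.05. DESeq2 called 86 higher and 66 lower.

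Müller glia are the radial glia of the retina. They span its whole depth, recycle glutamate and visual chromophore and are the latest cell type that retinal progenitors form. The retinal pigment epithelium is the pigmented layer behind the photoreceptors, which makes melanin in melanosomes under control of the factor MITF and feeds and clears the photoreceptor outer segments. Rods and cones detect light by a cascade of opsin, transducin, phosphodiesterase and a cyclic nucleotide gated channel, and the homeodomain factor CRX drives many genes of both.

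The Müller glia list was higher at day 200 on both chips by its median, and held 10 of the 147 genes called higher. Of 25 tested members of the list, 10 were called higher, 0 were called lower and 15 were not called. Over all tested genes 1.29% were called higher. The members were chosen with earlier results of these data known, so this count is no independent support. The median log2 difference was 0.91 at day 200a and 1.16 at day 200b, against 0.06 and 0.05 over all tested genes. The summed level of the list was 6321 CPM at day 90, 12753 CPM at day 200a and 11816 CPM at day 200b.

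TF encodes transferrin, the iron carrier (chr3:133746040-133796641, GRCh38). Its level was 48.7 CPM at day 90, 1202 CPM at day 200a and 798 CPM at day 200b. Over the 20 columns of a chip the lowest, median and highest values were 5.45, 19.7 and 268 CPM at day 90, 9.75, 856 and 4041 CPM on chip a and 26.7, 729 and 2850 CPM on chip b. The column ranges overlapped, while both day 200 medians lay above the highest day 90 column. The log2 difference was 4.49 at day 200a and 3.90 at day 200b, and TF rose by edgeR with an adjusted p of 0.000284.

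GPX3, a secreted glutathione peroxidase (chr5:151020591-151028988), had 51.3 CPM at day 90, 2070 CPM at day 200a and 534 CPM at day 200b. Every column of chip a, from 655 to 4032 CPM, lay above the highest of day 90 at 217 CPM, whereas columns of chip b, from 10.1 to 1155 CPM, overlapped with day 90. GPX3 rose (edgeR adjusted p = 0.012), and its log2 difference of 5.20 at day 200a and 3.26 at day 200b shows how far the day 200 chips were apart. WIF1, a secreted inhibitor of Wnt ligands (chr12:65050626-65121305), had 44.2 CPM at day 90, 366 CPM at day 200a and 293 CPM at day 200b. Its columns ran from 3.29 to 125 CPM at day 90, from 65.3 to 857 CPM on chip a and from 38.9 to 676 CPM on chip b. The median columns of chip a and chip b, at 319 and 284 CPM, were above every day 90 column, and WIF1 rose by 2.91 and 2.60 on the log2 scale (edgeR adjusted p = 0.00536).

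SLC1A3, the glial glutamate transporter, had 25.9 CPM at day 90, 98.4 CPM at day 200a and 119 CPM at day 200b, with log2 differences of 1.74 and 2.01. It was called higher by size and had an adjusted p of 0.0711 by edgeR. CYP26A1, which degrades retinoic acid, had 382, 1275 and 886 CPM on the 3 chips, and CD44, a hyaluronan receptor of Müller glia microvilli, had 52, 149 and 222 CPM. CRYM, a thyroid hormone binding protein, ABCA8, a lipid transporter, APOE, a lipid carrier, and FRZB, a Wnt antagonist, completed the called members, with mean log2 differences from 1.18 for FRZB to 1.79 for ABCA8.

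Several defining Müller glia genes were not among those called. RLBP1, the retinaldehyde binding protein of Müller glia and pigment epithelium, had 156 CPM at day 90, 210 CPM at day 200a and 86.1 CPM at day 200b, so the day 200 chips lay on either side of day 90. GLUL, glutamine synthetase, had 284, 455 and 488 CPM and missed the 2-fold limit on both chips. AQP4, the glial water channel, was low, with 2.22, 16.3 and 4.33 CPM. VIM, an intermediate filament that progenitors also make, had 1934 CPM at day 90, 1132 CPM at day 200a and 1465 CPM at day 200b. GFAP, the filament of reactive glia, had 19.7 CPM at day 90, 0.104 CPM at day 200a and 78.3 CPM at day 200b, and 1 cell gave 74.9% of its day 90 reads.

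**Figure D1:**
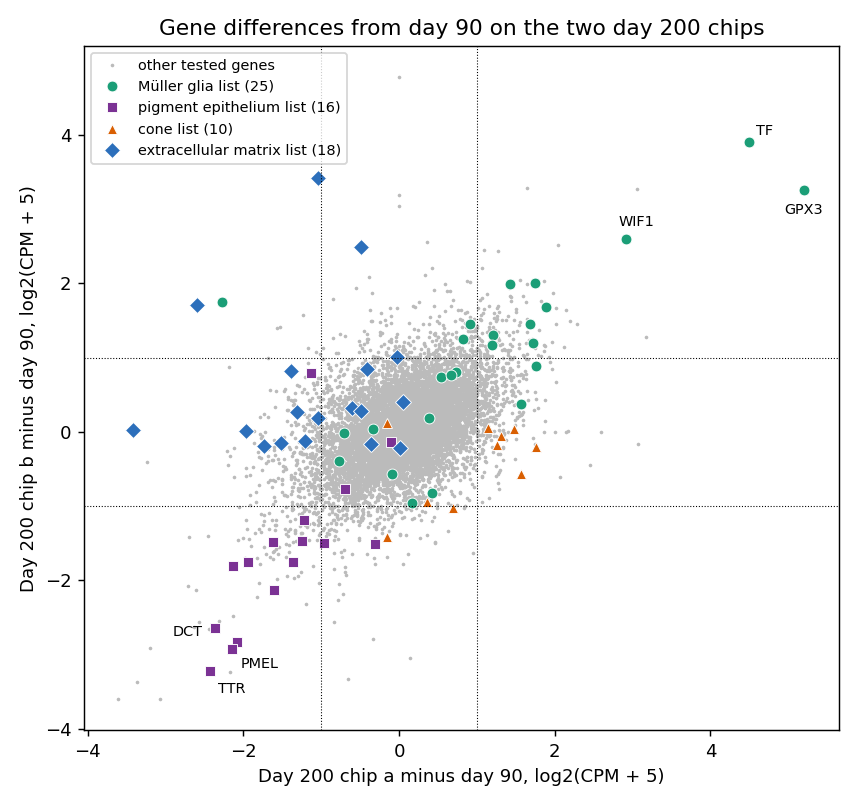
Log2 differences from day 90 for the 11368 tested genes, with chip a on the horizontal axis and chip b on the vertical axis, both as differences of log2(CPM + 5). Dotted lines mark a 2-fold difference. Müller glia genes lie mostly at the upper right, pigment epithelium genes at the lower left, while 8 of the 10 cone genes are above day 90 on chip a and 7 are below it on chip b, and extracellular matrix genes lie mostly to the left.

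Genes outside the list moved with these. SFRP4, a secreted Wnt modulator, had 4.88 CPM at day 90, 77.1 CPM at day 200a and 90.1 CPM at day 200b and rose (edgeR adjusted p = 0.00267). CP, the copper-binding ferroxidase ceruloplasmin, had 99.5, 366 and 350 CPM, with log2 differences of 1.83 and 1.76 and an adjusted p of 0.0524. Among the 12 genes with the largest smaller difference of both chips, LIX1, SEMA5B, a semaphorin, SEL1L3, C1orf61 and C4orf48 were also higher, with mean log2 differences from 1.49 for C4orf48 to 1.92 for C1orf61. DEFB119, a beta-defensin, rose from 8.69 CPM to 51.4 and 73.3 CPM (edgeR adjusted p = 0.0374), although 1 cell gave 48.7% of its reads on chip b. AC092691.2, which also rose by edgeR, had no read at day 90, where 3 reads would be 0.0259 CPM, and 19.4 and 8.73 CPM at day 200. TF overlaps SRPRB on the same strand and SFRP4 overlaps EPDR1 on the opposite strand in GENCODE 44, so their counts may share reads with these neighbours.

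**Figure D2:**
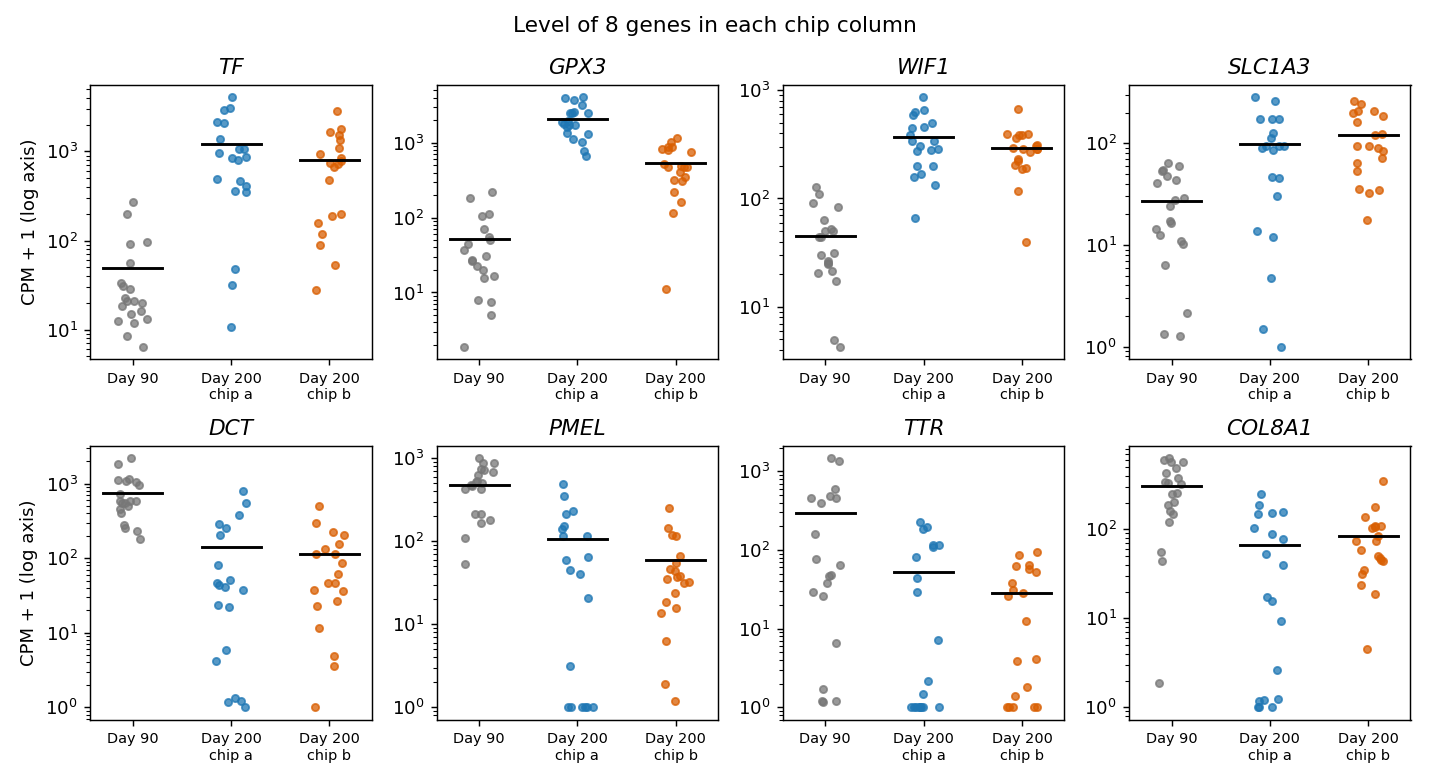
CPM + 1 on a log axis for 8 genes in each of the 20 columns of a chip (points), with the level of the whole chip as a line. TF, GPX3, WIF1 and SLC1A3 are higher on both day 200 chips and DCT, PMEL, TTR and COL8A1 lower, with columns of day 90 and day 200 overlapping for each of the 8 genes.

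The pigment epithelium list was lower at day 200 by its median, and held 11 of the 133 genes called lower. Of 16 tested members of the list, 11 were called lower, 0 were called higher and 15 had a lower value on both chips. Over all tested genes 1.17% were called lower. These members too were chosen with earlier results of these data known. The median log2 difference was -1.48 at day 200a and -1.63 at day 200b. The summed level was 4229 CPM at day 90, 1458 CPM at day 200a and 1230 CPM at day 200b. The other 6 members, RPE65, MLANA, OCA2, SLC45A2, RDH5 and CDH3, were below 10 CPM on every chip, and RPE65, the isomerase of the visual cycle, had 5.46 CPM at day 90 and no read on either day 200 chip.

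Enzymes and structural proteins of the melanosome were lower. DCT, dopachrome tautomerase, which acts in melanin synthesis (chr13:94436811-94479682), had 741 CPM at day 90, 141 CPM at day 200a and 114 CPM at day 200b. Its lowest, median and highest columns were 182, 584 and 2188 CPM at day 90, 0, 41.4 and 799 CPM on chip a and 0, 52.5 and 499 CPM on chip b. The highest day 200 columns overlapped with day 90, while the median columns of both day 200 chips were below every day 90 column. DCT fell by 2.36 and 2.65 on the log2 scale (edgeR adjusted p = 0.00227).

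PMEL, which forms the fibrils of the melanosome, had 482 CPM at day 90, 105 CPM at day 200a and 58.8 CPM at day 200b and fell (edgeR adjusted p = 0.00633). TYR, tyrosinase, the rate-limiting enzyme of melanin synthesis, had 43.7, 7.73 and 9.42 CPM, and its median column was 44.6 CPM at day 90 and 0 CPM on both day 200 chips. TYRP1, another melanosomal enzyme, had 160, 64.3 and 54.5 CPM, and MITF had 109, 39.3 and 28.6 CPM. These last 3 genes were called lower by size, with edgeR adjusted p-values of 0.0804 for TYR, 0.12 for TYRP1 and 0.0928 for MITF.

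The stretch upstream of DCT, TYR and TYRP1 is shown because these genes were lower together and because MITF is known to bind the M-box, whose core is CATGTG. The 250 bases before the RefSeq start on GRCh38.p14 are given 5′ to 3′ in the direction of the gene, with CATGTG or its reverse complement CACATG in capitals. They lie at chr13:94479683-94479932 (minus strand, the window of the shorter DCT transcript), chr11:89177625-89177874 (plus strand) and chr9:12693135-12693384 (plus strand).
DCT: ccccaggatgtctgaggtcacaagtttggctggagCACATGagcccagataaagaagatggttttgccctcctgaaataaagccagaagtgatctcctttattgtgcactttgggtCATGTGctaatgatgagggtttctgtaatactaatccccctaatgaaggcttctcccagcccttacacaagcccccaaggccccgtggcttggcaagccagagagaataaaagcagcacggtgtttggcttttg
TYR: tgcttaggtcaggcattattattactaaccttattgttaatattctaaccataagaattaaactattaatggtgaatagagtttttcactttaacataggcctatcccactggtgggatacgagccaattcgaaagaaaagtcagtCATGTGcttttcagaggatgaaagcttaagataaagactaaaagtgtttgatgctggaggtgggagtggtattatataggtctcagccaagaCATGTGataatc
TYRP1: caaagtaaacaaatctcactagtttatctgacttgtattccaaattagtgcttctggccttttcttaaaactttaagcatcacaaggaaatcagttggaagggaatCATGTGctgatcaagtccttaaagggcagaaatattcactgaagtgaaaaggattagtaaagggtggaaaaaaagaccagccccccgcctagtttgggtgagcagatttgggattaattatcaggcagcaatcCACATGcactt

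Each of the 3 windows held the core 2 times, and the window of the other DCT start, at chr13:94549407-94549656, held none. Of the 11 list members called lower, 5 had a promoter window in the reference table, and 3 of these held the core, which is 60%. The share was 8.63% over the 8600 tested genes that have a window and 11.5% over all 27305 genes with a window. The motif was searched on both strands and chosen after these genes were seen to be lower, and a match describes the letters and not a bound site.

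Pigment epithelium genes with other roles were lower as well. BEST1, a chloride channel of the basal membrane, had 186, 40.1 and 21.9 CPM and fell (edgeR adjusted p = 0.0117). TTR, the carrier of retinol and thyroid hormone, had 296, 51.1 and 27.3 CPM and fell (adjusted p = 0.00463), with 1 cell giving 24.4% of its day 90 reads. COL8A1, a collagen of basement membranes, had 304 CPM at day 90, 65.5 CPM at day 200a and 82.9 CPM at day 200b and fell (adjusted p = 0.0155). ENPP2, the enzyme autotaxin, and SFRP1, a Wnt antagonist, fell with adjusted p-values of 0.0369 and 0.05, and TIMP3, an inhibitor of matrix proteases, was called lower by size. SERPINF1, the secreted factor PEDF, had 488, 247 and 170 CPM and missed the limit on chip a. STRA6, the retinol receptor, had 138, 128 and 125 CPM, and SLC26A7, an anion transporter, lay on either side of day 90 with 58.1, 23.8 and 105 CPM.

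Genes that were not on the list but fell by edgeR included GPNMB, a melanosomal glycoprotein, with 153, 40.3 and 33.4 CPM, and ELN, elastin, with 126, 19.2 and 15.8 CPM. C8orf46, LGMN, a lysosomal protease, TMEM98 and NCCRP1 fell with 73.7, 10.9 and 8.43 CPM for C8orf46 and 330, 118 and 98.7 CPM for TMEM98. PRSS33, a serine protease, was called lower by size with 66.3, 10.8 and 2.52 CPM. PMEL overlaps CDK2 and BEST1 overlaps FTH1 on the opposite strand. TFPI2, an inhibitor of serine proteases, had 225, 72.7 and 53 CPM. It overlaps GNGT1, a gamma subunit of transducin that was called lower with 193, 25.6 and 69 CPM, on the opposite strand of chromosome 7, and no strand setting is given for the counting, so reads of these genes cannot be told apart. SPATA13, a guanine nucleotide exchange factor, had 55.6 CPM at day 90 in 25.3% of cells, 2.24 CPM on chip a, all of it from 1 cell, and no read on chip b, where 3 reads would be 0.0336 CPM.

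**Figure D3:**
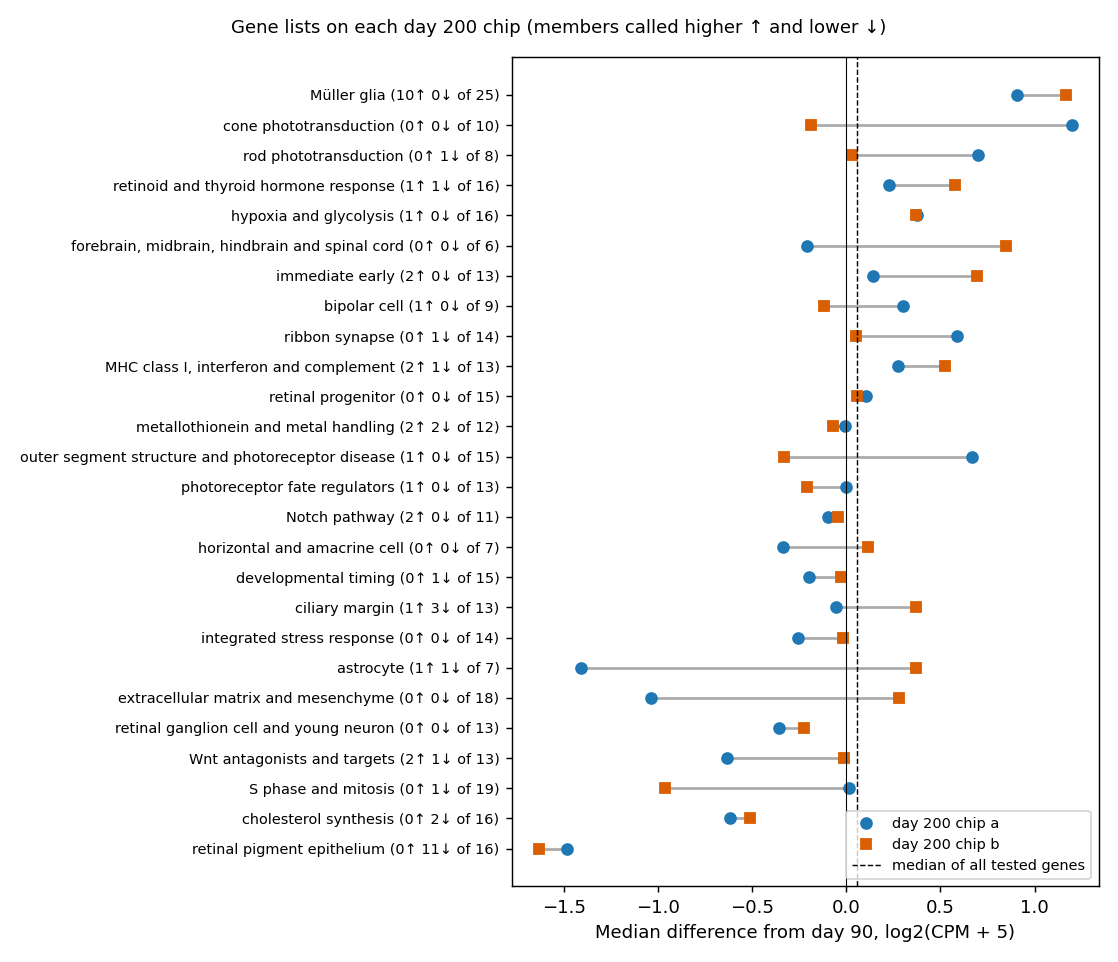
Median log2 difference from day 90 on chip a (circles) and chip b (squares) for the gene lists with at least 5 tested members, leaving out the lists that select cells, with the number of members called higher and lower of those tested. Müller glia genes lie high on both chips at 0.91 and 1.16 and pigment epithelium genes low at -1.48 and -1.63, while cone, astrocyte and extracellular matrix medians are far apart between the chips.

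Fewer cells of a type and less RNA per cell cannot be told apart in a sum over a chip, so cells were also counted by 3 lists of 8 genes each, which mark photoreceptors, glia and progenitors, and pigment epithelium. With each cell thinned to 50000 reads, a cell was positive with at least 1 read of at least 3 photoreceptor genes, 4 glia and progenitor genes or 4 pigment epithelium genes. These lists share members with the lists above, so the counts describe the same reads in another way. The thinning left out 6 cells of day 90 that had fewer reads.

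Cells positive for the pigment epithelium list made up 15.7% of 655 cells at day 90 (95% exact binomial interval 13.0 to 18.7%), 1.69% on chip a (0.621 to 3.63%) and 2.10% on chip b (0.911 to 4.10%). The day 200 chips did not differ beyond counting error and both lay far below day 90. With at least 5 reads per gene the shares were 11.9, 1.40 and 1.31%. Counting only cells positive for this list and no other, day 90 had 37 of 655, chip a 4 of 356 and chip b 5 of 381. Most of the 103 positive day 90 cells were thus positive for another list too. The intervals cover counting error only, and the cells of a chip share its load.

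Cells positive for the photoreceptor list made up 42.1% at day 90 (38.3 to 46%), 29.5% on chip a (24.8 to 34.5%) and 23.6% on chip b (19.4 to 28.2%). With at least 5 reads per gene these were 27.2, 22.2 and 16.3%. Of the 276 positive day 90 cells, 80 were just at 3 genes, and 102 further cells had 2. Counting only cells positive for the photoreceptor list and no other, day 90 had 119 of 655, chip a 74 of 356 and chip b 54 of 381. That narrower count was lower than day 90 for chip b only. None of the 3 lists was positive in 13.7% of day 90 cells, against 35.4% for chip a and 25.2% for chip b. Whether fewer detected list genes lowered the photoreceptor share was not tested. Cells positive for the glia and progenitor list made up 60.8% at day 90 (56.9 to 64.5%), 42.7% on chip a (37.5 to 48.0%) and 59.3% on chip b (54.2 to 64.3%). With at least 5 reads per gene these were 33.4, 23.6 and 42.3%. Chip a lay below day 90 at either limit, while chip b lay within the day 90 interval at 1 read and above the day 90 share at 5 reads. Cells positive for this list alone were 213 of 655 at day 90, 119 of 356 on chip a and 189 of 381 on chip b. By that count chip a was not below day 90 and chip b was above it. Chip a also had fewer genes per cell at equal depth, and the part of this in the counts was not tested.

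More cells carried reads of several lists at day 90. Cells positive for more than 1 list made up 29.9% at day 90, 9.27% at day 200a and 9.71% at day 200b, and with at least 5 reads per gene 6.26, 1.40 and 2.36%. Among cells positive for the photoreceptor list alone, 56.3% had a read of DCT at day 90 (31.1% at least 5 reads), against 16.2% at day 200a and 24.1% at day 200b. PMEL, from the same list as DCT, had a read in 16.0% of these day 90 cells and at least 5 in 2.52%. Cells positive for the glia and progenitor list alone had a read of DCT in 32.4% and of PMEL in 26.3% at day 90. These shares were not read as expression of DCT or PMEL by these cells, and whether the reads came from free RNA was not tested. The median depth of these cells was 163975 and 150540 reads.

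**Figure D4:**
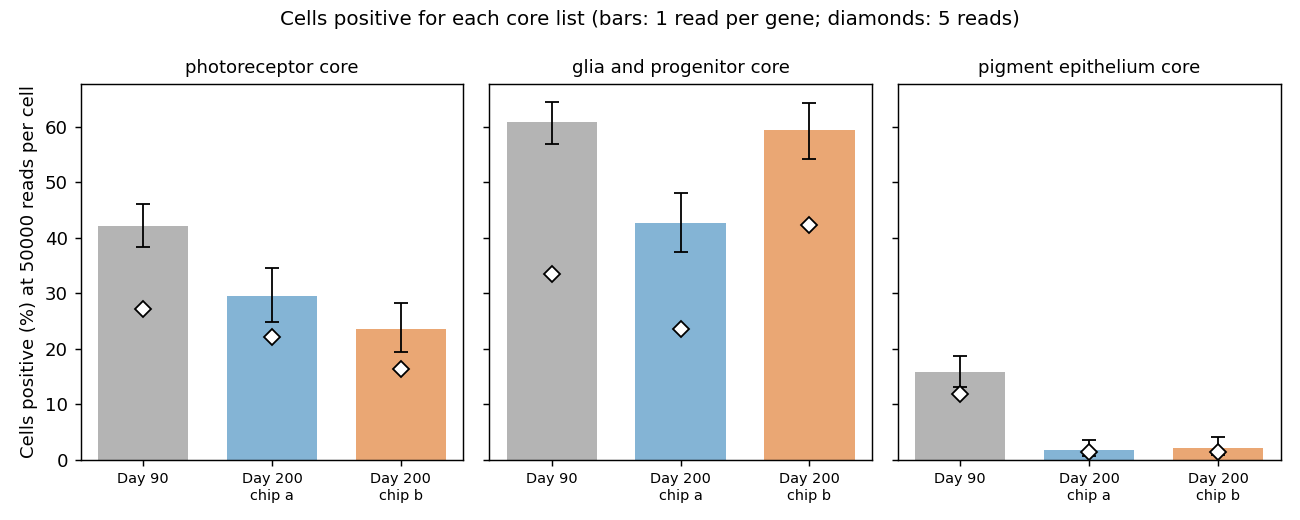
Percentage of cells positive for each core list on the day 90 chip and on chip a and chip b of day 200, at 50000 reads per cell. Bars use at least 1 read per gene with 95% exact binomial intervals, and diamonds use at least 5 reads. Pigment epithelium-positive cells, including those also positive for another list, are 15.7% at day 90 and 1.69 and 2.10% at day 200. Glia and progenitor-positive cells, including those also positive for another list, are lower on chip a only.

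Within cells positive for the glia and progenitor list alone, which were 213 at day 90, 119 at day 200a and 189 at day 200b, 308 of 9141 genes with at least 20 CPM were called higher (3.37%) and 156 lower (1.71%). The Müller glia list had 12 of 24 tested members called higher and 0 lower, with a median log2 difference of 1.62 at day 200a and 1.31 at day 200b. Its members were chosen with earlier results of these data known. TF had 104, 1914 and 1371 CPM in these cells, GPX3 had 116, 3352 and 734 CPM, and WIF1 had 94.1, 665 and 443 CPM. FRZB was called higher, with 62.8 CPM at day 90, 461 CPM at day 200a and 363 CPM at day 200b. RLBP1, which differed between the day 200 chips in all cells, was called higher here with 57.9, 292 and 131 CPM. The share of these cells with a WIF1 read was 36.2% at day 90, 70.6% at day 200a and 71.4% at day 200b, against 2.52, 21.6 and 13.0% in photoreceptor-positive cells. The Müller glia list was also higher in cells positive for the photoreceptor list alone, so its rise was not particular to glia and progenitor-positive cells. There 5 of 18 tested members were called higher and 0 lower, beside 4.17% of all genes called higher. Its median log2 difference there was 0.99 at day 200a and 1.17 at day 200b. In the glia and progenitor-positive cells CHST9, a sulfotransferase, was among the 6 highest calls with 6.64, 81.2 and 63.8 CPM. EMC10, of the endoplasmic reticulum membrane complex, was among the 6 lowest with 106, 15.4 and 10.7 CPM. SLC1A3 is itself 1 of the genes that chose these cells, so its call, 1 of the 12, is shaped by that choice.

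Progenitor genes in the same cells gave no call, with 0 of 14 members higher or lower. In all cells 0 of 15 were called, with a median log2 difference of 0.10 at day 200a and 0.06 at day 200b, near the median of all genes. Of 17 tested matrix genes in these cells 4 were called lower and 0 higher, the collagen chains COL1A1, COL1A2 and COL3A1 and the proteoglycan LUM, with a list median of -1.40 on chip a against -0.47 on chip b. COL1A1 had 325, 2.99 and 58 CPM. Of 5 tested cone genes in the glia and progenitor-positive cells 4 were called higher and 0 lower, beside 3.37% of all genes called higher. These were ARR3, GNB3, GNGT2 and PDE6H, with 6.7, 73.3 and 59.6 CPM for ARR3. The cone list median was 2.06 on chip a and 1.32 on chip b, against 1.62 and 1.31 for the Müller glia list in the same cells. Of 9 tested outer segment genes 3 were called higher and 0 lower, and of 6 rod genes 0 were called. A read of ARR3 was found in 10.8% of these cells at day 90, 12.6% at day 200a and 3.70% at day 200b, and at least 5 reads in 0.939, 4.20 and 1.06%, so most of these cells did not carry it.

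Pigment epithelium genes were also looked at within the cells of the other lists, from which cells positive for the pigment epithelium list had been removed, 103 at day 90, 6 at day 200a and 8 at day 200b counting all positive cells. This selection removes the cells highest in these genes mostly at day 90, so the values describe the remaining cells and do not test the difference. In the glia and progenitor-positive cells, 4 of 14 tested members, TYRP1, COL8A1, ENPP2 and the ribonuclease RNASE1, were called higher and 1, SLC26A7, lower, and the median log2 difference was 0.43 at day 200a and 0.09 at day 200b. In cells positive for the photoreceptor list alone 4 of 14, TYRP1, TIMP3, RDH5 and RNASE1, were called higher and 0 lower. Over all genes 4.17% were called higher and 3.61% lower in the photoreceptor-positive cells. In the glia and progenitor-positive cells these shares were 3.37% and 1.71%. DCT had 87.2, 97.3 and 41.8 CPM in the glia and progenitor-positive cells, against 741, 141 and 114 CPM in all cells. TYRP1, DCT, PMEL, TYR and MITF are themselves on the list that removed cells. Only 37 cells of day 90, 4 of chip a and 5 of chip b were positive for the pigment epithelium list alone, too few to compare levels within them.

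Cone genes did not move together on the day 200 chips when all cells were summed. Of 10 tested cone genes, 0 were called in either direction, with a median log2 difference of 1.20 at day 200a and -0.19 at day 200b. ARR3, cone arrestin, had 164 CPM at day 90, 496 CPM at day 200a and 109 CPM at day 200b. GNB3, a transducin subunit of cones, had 280, 677 and 248 CPM, and PDE6H, the inhibitory subunit of cone phosphodiesterase, had 533, 686 and 275 CPM. Each of these 3 genes was higher than day 90 on chip a and lower on chip b.

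Rod genes gave 0 higher calls of 8 tested and 1 lower, GNGT1, beside 1.29% of all tested genes called higher and 1.17% lower. Of the 8, 4 were above day 90 on both chips, 1 was below on both and 3 differed in sign, with a median log2 difference of 0.70 on chip a against 0.03 on chip b. GNAT1, the rod transducin alpha subunit, had 81.3, 178 and 54.5 CPM, and PDE6G, a subunit of rod phosphodiesterase, had 9.8, 120 and 8.22 CPM. CNGB1, a subunit of the rod channel, had 28.6, 84.4 and 54.2 CPM and missed the limit on chip b. Among 13 tested regulators, NR2E3, which represses cone genes in rods, was called higher with 11.2, 45.9 and 36.3 CPM (edgeR adjusted p = 0.283). NRL, the factor that sets rod fate, had 73.7, 232 and 82.6 CPM, and CRX had 10.8, 5.25 and 5.46 CPM. MPP4, a scaffold of the photoreceptor synapse, was called lower with 98.2, 44.6 and 43.3 CPM.

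Within cells positive for the photoreceptor list alone, which were 119 at day 90, 74 at day 200a and 54 at day 200b, 386 of 9267 genes were called higher (4.17%) and 335 lower (3.61%). Rod genes were higher in these cells, with a median log2 difference of 1.49 at day 200a and 1.08 at day 200b over 10 tested members, against 0.01 over all genes. PDE6A, PDE6B and CNGB1 were called higher, 0 were called lower, and CNGB1 had 66.2, 275 and 168 CPM. NR2E3 had 19.7, 147 and 147 CPM in these cells and a read in 11.8% of them at day 90, 27% at day 200a and 29.6% at day 200b. NRL had 194, 778 and 490 CPM and was called higher. Of 16 tested outer segment genes 2 were called higher, ROM1 and RP1, and 1 lower, IMPG1. The median log2 difference of that list was 0.79 at day 200a and 0.13 at day 200b. ROM1, of the outer segment disc rim, had 74.1, 382 and 209 CPM. RP1, a protein of the photoreceptor axoneme, had 147, 415 and 431 CPM.

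Cone genes in the same cells stayed apart between the day 200 chips, with a median log2 difference of 1.54 at day 200a and -0.21 at day 200b. CNGB3, a subunit of the cone channel, was called higher with 5.31, 68.2 and 41.4 CPM. OPN1SW, the short-wavelength cone opsin, had 42.9 CPM at day 90 and no read in the cells of either day 200 chip. In all cells its 1027 reads at day 90 came from 13 cells, and 1 cell gave 81.8% of them. The 6 highest calls by the rule for named genes included DMD, dystrophin, with 17.8, 162 and 190 CPM, MYO5B, a myosin, with 5.17, 54.7 and 64.4 CPM, RBFOX1, a splicing factor of neurons, MXRA5 and DEFB119. The 6 lowest included INHBB, an inhibin subunit, with 68.7, 8.04 and 3.59 CPM, PDE1A, a phosphodiesterase, with 46.3, 3.21 and 1.75 CPM, NIP7, ZNF394, C8orf46 and AC079089.1. STMN2, a gene of young neurons, was called lower in photoreceptor-positive and in glia-positive cells, and the photoreceptor-positive cells of day 200 also carried TF at 25.1 and 39.7 CPM against 1.82 CPM at day 90, far under its level in glia-positive cells.

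CRX binds sites with the core TAATCC, and the windows upstream of CNGB1 and PDE6C are shown because they are the members of the rod and cone phosphodiesterase and channel genes tested here whose 250 bases held it. The windows lie at chr16:57971129-57971378 (minus strand) and chr10:93612287-93612536 (plus strand) of GRCh38.p14, from RefSeq, 5′ to 3′ in the direction of the gene with the core in capitals.
CNGB1: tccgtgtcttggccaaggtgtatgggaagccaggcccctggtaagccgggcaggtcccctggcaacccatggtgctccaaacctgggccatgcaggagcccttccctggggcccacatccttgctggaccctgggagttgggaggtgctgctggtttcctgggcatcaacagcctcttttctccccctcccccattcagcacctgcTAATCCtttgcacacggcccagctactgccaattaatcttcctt
PDE6C: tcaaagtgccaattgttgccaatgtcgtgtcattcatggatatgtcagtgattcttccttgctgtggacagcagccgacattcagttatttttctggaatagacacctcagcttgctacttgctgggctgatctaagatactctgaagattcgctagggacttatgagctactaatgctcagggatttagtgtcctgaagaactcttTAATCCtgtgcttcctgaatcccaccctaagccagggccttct

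On either strand the core was in 2 of 7 cone genes with a window, 1 of 7 rod genes, 2 of 12 regulators and 3 of 9 outer segment genes, against 6.9% of all genes with a window and 6% of those tested. It was as frequent outside these lists, in 3 of 8 pigment epithelium genes and 4 of 16 Müller glia genes. CNGB1 was called higher within photoreceptor-positive cells, while PDE6C, the catalytic subunit of cone phosphodiesterase, had 26.9, 17.1 and 18.9 CPM there and was not called.

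Muscle genes were lower at day 200 and rested on few cells. Of 10 genes of the sarcomere and its calcium release, chosen after the called genes were seen, TNNC2 and MYL1, a troponin and a myosin light chain of skeletal muscle, had 55.8 and 46.8 CPM at day 90 and no read on either day 200 chip. TTN, titin, had 227 CPM at day 90 and 70.2 and 65.3 CPM at day 200. Cells with at least 5 reads of at least 3 of the 10 genes numbered 21 at day 90, 0 at day 200a and 1 at day 200b, and the day 60 chip had 9. The 21 cells gave 84.6% of the day 90 reads of these genes, and 1 cell gave 41.7%. Without such cells none of the 10 genes was called, and NEB, TTN and TRDN reversed, with mean log2 differences of 0.52, 0.09 and 0.35. The removed cells were chosen by reads of these same 10 genes and were nearly all of day 90. The removal therefore lowers day 90 by its design, describes the remaining cells and does not test the difference. TTN, NEB, ACTC1, TNNC2, MYL1, MYLPF and TNNT3 were among the 24 genes that fell by edgeR in all cells.

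Genes of the ribosome were mostly lower on both day 200 chips. Of 79 tested ribosomal protein genes, a list chosen after the called genes were seen, 10 were called lower, 0 higher and 67 were lower on both chips, with a median log2 difference of -0.73 at day 200a and -0.64 at day 200b. The share called lower over all tested genes was 1.17%. The summed level of the ribosomal protein genes was 105500 CPM at day 90, 68259 CPM at day 200a and 66949 CPM at day 200b. RPL7A, of the large subunit, had 960, 324 and 303 CPM. Its columns ran from 662 to 1338 CPM at day 90, from 149 to 511 CPM on chip a and from 171 to 480 CPM on chip b. The columns of the day 90 chip thus did not overlap with those of the day 200 chips. RPLP0, the stalk protein, had 1724, 622 and 691 CPM without overlap of columns. Columns are parts of a chip, so this describes a difference between chips, and the share of all tested genes without overlap is not given. EEF1A1, the elongation factor that brings tRNA to the ribosome, had 584, 136 and 210 CPM. All 3 fell by edgeR, with adjusted p-values of 0.025, 0.0372 and 0.0374. These families have many near-identical pseudogene copies, which could take a share of the reads, so their counts are uncertain.

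Cell cycle genes differed between the day 200 chips. Of 19 tested genes of S phase and mitosis, 1 was called lower, CENPF, a kinetochore protein, with 162, 76.9 and 35.7 CPM, and the median log2 difference was 0.01 at day 200a and -0.96 at day 200b. TOP2A, which untangles DNA in mitosis, had 160, 99.6 and 11.5 CPM. Of 16 tested genes of cholesterol synthesis, FDFT1 and MSMO1 were called lower and 0 higher, with a median log2 difference of -0.62 and -0.51 on the chips. FDFT1, squalene synthase, had 184, 85.2 and 82.9 CPM. The share called lower over all tested genes was 1.17%.

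Extracellular matrix genes were split between the day 200 chips and gave no call among 18 tested, with a median log2 difference of -1.04 at day 200a and 0.28 at day 200b. MGP, matrix Gla protein, had 791 CPM at day 90, 126 CPM at day 200a and 2597 CPM at day 200b, and COL3A1 had 1299, 328 and 1314 CPM. The summed level of the list was 5386, 2234 and 8154 CPM. Lists for other cells were mostly near 0 or low, beside 1.29% of all tested genes called higher and 1.17% lower. Of 13 tested genes of ganglion cells and young neurons 0 were called, of 7 genes of horizontal and amacrine cells 0, and of 9 bipolar genes CABP5, a calcium-binding protein, was called higher with 7.21, 44.6 and 28.5 CPM. Of the defining immune and vascular genes 2 of 12 were tested and both were called higher, KDR, a VEGF receptor, with 51.1, 112 and 127 CPM and CLDN5, a tight junction protein, with 3.8, 14.3 and 17.3 CPM, while the microglial gene AIF1 had 2.59 CPM at day 90 and no read at day 200. Of 6 tested genes of other brain regions 0 were called, and of 3 lens genes 0.

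Signalling lists held a few calls each. Over all tested genes 1.29% were called higher and 1.17% lower, so a single call in a list is not a result about its pathway. HES4 and HEY2, targets of Notch, were the 2 of 11 called higher, with 13.8, 45.6 and 61.6 CPM for HES4, while HES1 had 1154, 1358 and 1730 CPM. WIF1 and FRZB were higher and SFRP1 was lower among 13 tested Wnt genes. Of 16 retinoid and thyroid hormone genes, CYP26A1 was called higher and ALDH1A1, which makes retinoic acid, lower with 28.9, 5.23 and 9.72 CPM. IFITM2 and IFITM3, membrane proteins that interferon induces, were called higher, with 509, 1462 and 1316 CPM for IFITM3, while B2M, the light chain of MHC class I, was called lower with 75.4, 18.6 and 32.4 CPM. Of 12 tested genes of metallothioneins and metal handling, TF and CP were called higher, the metallothioneins MT1E and MT2A lower, with 268, 117 and 110 CPM for MT2A, and 8 others, MT1F, MT1X and MT3 among them, were not called. ADM, the hypoxia-induced peptide adrenomedullin, was the only call among 16 tested hypoxia and glycolysis genes, with 102, 285 and 360 CPM. JUNB and EGR3 were called higher of 13 immediate early genes, and 0 of 14 genes of the integrated stress response were called. PAX2 was called higher and GJA1, BMP7 and RELN lower among 13 ciliary margin genes, where RELN, an extracellular guide of neurons, had a read in 31.8% of cells at day 90, 8.71% at day 200a and 13.6% at day 200b. In the astrocyte list, PAX2 was called higher and FGFR3 lower of 7 tested. Of 15 genes of developmental timing, DLK1, an imprinted Notch ligand, was called lower with 52.7, 16.3 and 9.98 CPM.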

How the data were processed

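Per the labels, RNA was amplified with SMART-Seq v4 on the Fluidigm C1 HT chip. The authors trimmed reads with Trimmomatic 0.33, aligned them with STAR 2.4.0 to GRCh38.p7 with GENCODE 25, used HTSeq 0.6 for gene counts and then dropped poor cells and rare genes. The deposited values are raw read counts without molecular identifiers, 24415 rows by 1976 cells. The spike-in row, 166 rows named by a number and 92 named by an Ensembl ID were left out, which kept 24156. The rows held 3473832 to 7994770 reads per column at day 90 and 3412762 to 6289461 at day 200. A stated filter of 150000 reads would leave 372 of the 661 day 90 cells, so it was not applied and serves as an alternative. Cells were identified by column and row barcode, and 38 row barcodes recur on all 4 chips as well positions, with 0 cells sharing both. Scrublet in scanpy 1.11.5 marked 1, 4 and 2 doublets on the day 90 chip, chip a and chip b, which were kept.

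Counts were summed per chip and tested with edgeR 4.0.16 (TMM, quasi-likelihood, FDR 0.05) in R 4.3.3, with DESeq2 1.42.0 as an alternative. The steps were tested on simulated data. Lists of genes were summarised by counts and medians. The genes named are the list members, those called by edgeR, and the 12 called higher and 12 called lower with the largest smaller difference of both chips, taken where the higher side reached 20 CPM and 10% of its cells held a read, or 6 and 6 within positive cells. Genes of the Y chromosome were never named. The members and lists were chosen with earlier results of these data known. Gene positions are from GENCODE 44 on GRCh38, and promoter windows were matched by symbol to RefSeq (GRCh38.p14), for 8600 of 11368 genes. Intervals used scipy 1.17.1, and tables numpy 2.4.6 and pandas 2.3.3 in Python 3.11.15, with figures from matplotlib 3.10.9. The alternatives were other pseudocounts, no filter, TMM or mitochondria-free library sizes, means per cell, thinned cells, stricter cell filters, removal of doublets and leaving out each day 200 chip.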

Additional observations from a re-analysis of the deposited data

How the results depend on the processing

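The count of genes called by size moved with the pseudocount, to 299 higher and 200 lower at 1 CPM and to 70 and 79 at 10 CPM. With 1 day 200 chip left out the count ran from 416 to 523 higher and from 299 to 477 lower. TMM library sizes gave 114 higher and 153 lower and moved the median of all genes by -0.07. Without the low-count filter 152 and 170 were called. In edgeR, total reads as library size gave 2 higher and 3 lower, no filter gave 0 and 0 (540 genes at an unadjusted p under 0.05), and DESeq2 gave 86 and 66. The day 200 minus day 90 difference in the share of photoreceptor-positive cells was -8.04 percentage points with at least 5 reads per gene. The day 200 minus day 90 difference in the share of pigment epithelium-positive cells was -10.6 points with at least 5 reads per gene, -17.2 with 1 gene fewer, -10.8 with 1 gene more and -18.0 without thinning. Within photoreceptor-positive cells, leaving out a day 200 chip gave 1060 to 1220 genes higher and 906 to 1219 lower, and 1 gene more gave 518 lower. Within glia and progenitor-positive cells it gave 536 to 1071 higher and 355 to 652 lower, and 1 gene more gave 235 lower. Without muscle cells, which were chosen by these same genes, NEB (0.519), TTN (0.0854) and TRDN (0.348) reversed and the other 7 muscle genes were no longer called. The cause of these moves was not tested. Values of named genes were recomputed only with means per cell, with TMM library sizes and with each day 200 chip left out. Other pseudocounts, thinned cells and stricter cell filters were not applied to them. Of these 164 values 163 kept their direction and call. AC092691.2 was no longer tested without day 200a, where it stayed below 10 CPM (log2 difference 1.46). The alternatives with at least 5 reads per gene, without cells positive for more than 1 list and without muscle cells were chosen after seeing the data. No paired analysis was possible because the shared column numbers are positions on separate chips and day 90 has 1 chip. With 1 chip at day 90, chip and day cannot be told apart, and depth limits genes below about 10 CPM.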
